A study of Mus musculus with 9 samples.

Results

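The enzymes that split glucose and feed its carbon to the mitochondria were followed in mouse heart ventricles with and without a PI3K transgene. The list held 39 genes, 20 of glycolysis (glucose transporters and lactate dehydrogenase included) and 19 of the citric acid cycle (pyruvate dehydrogenase, pyruvate carboxylase and the aspartate shuttle included). A member was taken wherever a probe set of the array carried its symbol as the only gene name, which gave 57 of 12488 probe sets and 36 of 8252 genes. Gpi1, Eno1 and Pfkfb1 had no such probe set, and Gapdh was read only by control probe sets. Of the other 35 genes, Got1 and Idh3b did not pass the filter on low signals, so 33 were tested, 16 of glycolysis and 17 of the cycle.

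RNA came from both ventricles of 9 females at 3 months of age, hybridised singly to 9 arrays, with 3 animals per group. Every mouse carried a transgene that overexpresses the receptor of insulin-like growth factor 1. The IGF1R group carried it alone. The IGF1R-caPI3K group carried it with a constitutively active PI3K (p110), and the IGF1R-dnPI3K group with a dominant negative PI3K (p110). Which promoters drive the transgenes, and how many founder lines there were, is not stated in the labels. Mice without a transgene, or with a PI3K transgene alone, were not analysed here, so no value is relative to a normal heart.

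Glycolysis turns glucose into pyruvate in the cytosol, with hexokinase and phosphofructokinase as its main points of control. The pyruvate dehydrogenase complex carries pyruvate into the mitochondrion's citric acid cycle as acetyl-CoA, and the cycle's dehydrogenases pass electrons to the respiratory chain. The adult heart draws most of its energy from fatty acids, with glucose and lactate as further fuels, and signalling through PI3K and Akt is known to promote glucose uptake and glycolysis.

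The question was whether active or inhibited PI3K, added to the IGF1R transgene, goes with different transcript signals of these enzymes. Between IGF1R-caPI3K and IGF1R mice no member passed the test. Between IGF1R-dnPI3K and IGF1R mice 2 glycolysis members rose, 4 cycle members rose and 1 cycle member fell, out of 16 and 17 tested. Over all tested probe sets 5.7% were called higher and 7.8% lower in that comparison, and among the brightest 10%, which hold most members, 23.8% and 7.09%. After quantile normalization, which gives all arrays one distribution of signals, only 2 of these 7 calls were still made: Idh2 higher and Dld lower in IGF1R-dnPI3K mice. With all arrays set to a common median the rises of Aldoa, Eno3, Pdha1, Pdhb, Idh2 and Idh3a were still called. Tpi1 was then called higher too, and Dld was not called (limma adjusted p = 0.0805). Idh2 was also lower in IGF1R-caPI3K than in IGF1R-dnPI3K mice on the deposited and quantile-normalized scales, but was not called there with a common median (limma adjusted p = 0.0744). Calls rest on limma's moderated test on log2 signals over 7898 probe sets, with a Benjamini-Hochberg adjusted p under 0.05, and the 3 comparisons share arrays. The labels do not say whether the series of the mouse numbers in the titles marks a litter or batch, and with that series as a block no member was called. The 7 calls between IGF1R-dnPI3K and IGF1R mice then had limma adjusted p of 0.251 to 0.619, with differences of 0.38 (Aldoa), 0.34 (Eno3), 0.55 (Pdha1), 0.28 (Pdhb), -0.39 (Dld), 0.73 (Idh2) and 0.40 (Idh3a). In that fit the IGF1R-dnPI3K contrasts rest on replicate 1 alone.

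Signal distribution and RNA quality were not alike between groups. The 99th percentile of signal ran from 8366 to 8829 in IGF1R, from 9204 to 9813 in IGF1R-caPI3K and from 10024 to 12212 in IGF1R-dnPI3K samples, while array medians lay between 161 and 197. IGF1R-dnPI3K replicate 3 stood apart, with a highest signal of 51164 against 22475 to 29544 on the other 8 arrays and a mean correlation with the other arrays of 0.931 against 0.950 to 0.955. The 3' to 5' signal ratio of Gapdh lay between 0.747 and 0.818 in IGF1R samples and between 0.843 and 0.943 in the other 6. The same ratio of CreX, a hybridisation control of the array, lay between 1.05 and 1.26 in IGF1R samples and between 1.74 and 1.89 in the other 6. Of the markers of the labelled tissue, all 8 cardiomyocyte genes passed the filter on low signals, among them Myl2, the ventricular myosin light chain. Of 3 atrial markers, Myl7 and Sln did not pass it on their brightest probe sets.

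Most of the tested members were read by bright probe sets, so the differences of all probe sets were also described by signal. The brightest 10% of tested probe sets (790, with a mean signal of at least 2296) held 26 of the 33 tested members. Their median log2 difference between IGF1R-dnPI3K and IGF1R mice was 0.21, and 23.8% of them were called higher and 7.09% lower. Over all tested probe sets the median was -0.09. With quantile normalization these medians became 0.01 and 0.00. The median of the dimmest of 20 signal bins was -0.26 and that of the brightest bin 0.29 on the deposited scale. The part of these array differences in the calls below was not tested beyond the change of scale.

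**Figure D1:**
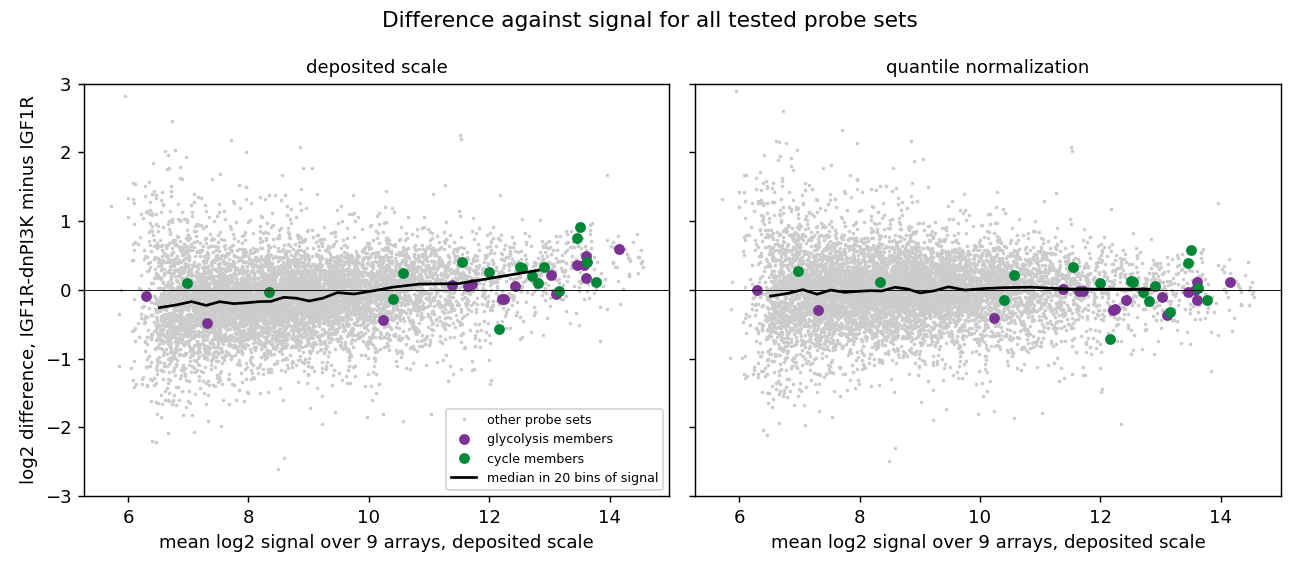
Log2 difference between IGF1R-dnPI3K and IGF1R mice (vertical axis) against mean log2 signal over 9 arrays (horizontal axis), on the deposited scale (left) and after quantile normalization (right). Grey points are probe sets, coloured points are members and the black line is the median in each of 20 signal bins, which climbs from -0.26 to 0.29 on the left and stays between -0.09 and 0.05 on the right; 1 probe set lies outside the plotted range.

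Active PI3K was not accompanied by a detectable change of either enzyme set. Between IGF1R-caPI3K and IGF1R mice 0 of 16 glycolysis members and 0 of 17 cycle members passed limma's test on the deposited scale, where 0.152% of all tested probe sets were called higher and 0.0633% lower. With quantile normalization 0 and 0 passed as well, beside 0.57% of all probe sets called higher and 0.405% lower. At an unadjusted p under 0.05 the counts were 0 of 16 glycolysis and 2 of 17 cycle members, beside 18.4% of all tested probe sets. The median log2 difference was 0.05 for glycolysis and 0.02 for the cycle, beside -0.04 for all probe sets. With quantile normalization the members' medians turned to -0.03 and -0.04, beside 0.00 for all probe sets. So few probe sets passed in this comparison that a count of 0 members lies near the background. That number depended on the arrays in the fit. In a fit of only these 2 groups 699 probe sets were called in place of 17, and Dld was called lower. Without IGF1R-dnPI3K replicate 3 alone 549 were called, and Dld was again lower. After quantile normalization Dld and Cs were called lower in a fit of only these 2 groups.

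No gene of glucose entry or of the first steps of glycolysis passed in any comparison. Slc2a4, the insulin-responsive glucose transporter GLUT4, had signals of 3702, 3220 and 3388 in IGF1R mice, 2868, 3054 and 3130 in IGF1R-caPI3K mice and 3310, 3396 and 4342 in IGF1R-dnPI3K mice. All 3 IGF1R-caPI3K values lay below all others, by -0.19 ± 0.12 (SE) against IGF1R on the log2 scale, which did not pass (limma adjusted p = 0.447). Slc2a1, the basal transporter GLUT1, was dim and uneven, at 21.1 to 161 over the 9 arrays, with a difference of -0.09 ± 0.71 between IGF1R-dnPI3K and IGF1R mice. Hexokinase 1 (Hk1) differed by 0.07 ± 0.20 and hexokinase 2 (Hk2) by -0.14 ± 0.10 in the same comparison.

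The phosphofructokinase step was read by 3 genes. Pfkm, the muscle subunit, had 8404 to 10057 in IGF1R, 8227 to 9254 in IGF1R-caPI3K and 7721 to 9862 in IGF1R-dnPI3K mice, 3 overlapping ranges. Its quantile-normalized difference between IGF1R-dnPI3K and IGF1R mice was -0.36 ± 0.11 and lay just outside the threshold (limma adjusted p = 0.0562), against -0.05 ± 0.12 on the deposited scale. Pfkl, the liver-type subunit, was higher in all 3 IGF1R-caPI3K mice (3508, 3500 and 3670) than in the other 6 (2792 to 3466), yet its difference from IGF1R, 0.25 ± 0.11, gave an adjusted p of 0.285 in limma. Pfkfb2, which makes the activator fructose 2,6-bisphosphate and is a target of insulin signalling in heart, ran from 80.5 to 263 with overlapping groups.

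In the lower part of glycolysis Eno3 and the brighter probe set of Aldoa were called higher in IGF1R-dnPI3K mice. These were 2 of 16 tested glycolysis members, at 5.7% of all tested probe sets called higher and 7.8% called lower in this comparison. Aldoa encodes the muscle form of aldolase, which splits fructose 1,6-bisphosphate. It had 14912, 15240 and 15029 in IGF1R mice, 16866, 16576 and 19796 in IGF1R-caPI3K mice and 19085, 19303 and 31533 in IGF1R-dnPI3K mice. The IGF1R values were tightly grouped and lay below all others, and the value of 31533 came from IGF1R-dnPI3K replicate 3. IGF1R arrays also stood apart from all others in the CreX ratio, whose part was not tested.

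The fitted log2 difference of Aldoa between IGF1R-dnPI3K and IGF1R mice was 0.59 ± 0.17 (SE, limma adjusted p = 0.0471). With quantile normalization it was 0.11 ± 0.08 (adjusted p = 0.393, limma). A second, dimmer probe set of Aldoa went the other way: it had 6487, 6702 and 6922 in IGF1R mice and 5878, 5709 and 4203 in IGF1R-dnPI3K mice. That difference was -0.36 ± 0.14 (limma adjusted p = 0.0928) on the deposited scale and -0.56 ± 0.15 (adjusted p = 0.0403) after quantile normalization. Between IGF1R-caPI3K and IGF1R mice the brighter probe set differed by 0.23 ± 0.17 and the dimmer by -0.41 ± 0.14, neither of which passed. As the mean over its probe sets Aldoa differed by 0.11 between IGF1R-dnPI3K and IGF1R mice (adjusted p = 0.408, limma). The names of both probe sets mark possible shared targets, so the direction of Aldoa is not settled by these arrays.

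Eno3, the muscle enolase, had 11174, 10226 and 10154 in IGF1R mice, 11722, 12568 and 12713 in IGF1R-caPI3K mice and 12751, 13580 and 18666 in IGF1R-dnPI3K mice. The 3 groups did not overlap and stood in that order. Both PI3K groups were also split from IGF1R in the CreX ratio, whose part was not tested. The rise from IGF1R to IGF1R-dnPI3K was 0.49 ± 0.14 (SE, limma adjusted p = 0.0393). With quantile normalization it was 0.12 ± 0.07 and no longer passed (limma adjusted p = 0.279). Leaving out any single IGF1R or IGF1R-caPI3K array ended both glycolysis calls (limma adjusted p = 0.0592 to 0.123), leaving out IGF1R-dnPI3K replicate 1 gave 4 calls, and 2 remained in number without IGF1R-dnPI3K replicate 2 or 3.

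The other enzymes of lower glycolysis did not pass in any comparison. Tpi1, triosephosphate isomerase, had 9373 to 11838 in IGF1R and 12341 to 16012 in IGF1R-dnPI3K mice, 2 ranges that did not overlap. Its difference of 0.37 ± 0.12 fell short of the threshold (limma adjusted p = 0.07) and was 0.00 ± 0.08 after quantile normalization. Pgk1, phosphoglycerate kinase, had 4824 to 5553 in IGF1R, 4265 to 5562 in IGF1R-caPI3K and 4393 to 4983 in IGF1R-dnPI3K mice, with a difference of -0.14 ± 0.12 between the last and the first. None of its ranges stood apart. Pkm, the muscle pyruvate kinase gene, differed by 0.37 ± 0.18 on its brighter probe set and by -0.49 ± 0.30 on its dimmer one between IGF1R-dnPI3K and IGF1R mice, neither of which passed.

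Gapdh, glyceraldehyde 3-phosphate dehydrogenase, was read by control probe sets, which were brought into the fit as an alternative chosen after seeing the data. Its 3' probe set had 18047, 16902 and 16541 in IGF1R mice, 22360, 22344 and 23061 in IGF1R-caPI3K mice and 22537, 22094 and 33855 in IGF1R-dnPI3K mice. The IGF1R arrays were the lowest 3, and the difference of IGF1R-dnPI3K from IGF1R was 0.58 ± 0.15 (SE, limma adjusted p = 0.0303). CreX and the 3' to 5' ratio of Gapdh split the arrays in the same way, and their part was not tested. The 5' and middle probe sets differed by 0.38 ± 0.13 and 0.62 ± 0.19 and did not pass (adjusted p = 0.0729 and 0.0504, limma). With quantile normalization the 3 differences were 0.12, -0.11 and 0.04, and none passed. The middle probe set held the highest signal on every array but IGF1R replicate 2, where the 5' probe set did. Quantile normalization gives the highest signal of every array the same value. It therefore cannot show whether the signal of the middle probe set differed.

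At the pyruvate branch neither lactate dehydrogenase gene passed in any comparison. Ldha, the muscle-type subunit, had 11664 to 12041 in IGF1R, 12083 to 12631 in IGF1R-caPI3K and 11866 to 15189 in IGF1R-dnPI3K mice. The first 2 ranges did not overlap, with a difference of 0.06 ± 0.10 between IGF1R-caPI3K and IGF1R mice (limma adjusted p = 0.78). Ldhb, the heart-type subunit, had 4466 to 6077, 4878 to 5605 and 4989 to 6369 in the same order. The log2 ratio of Ldha to Ldhb was 1.11 ± 0.24 (SD, n = 3) for IGF1R, 1.22 ± 0.08 for IGF1R-caPI3K and 1.23 ± 0.18 for IGF1R-dnPI3K mice, overlapping in all 3 comparisons. Such ratios compare groups only, since signals of different probe sets are not on one scale.

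Ratios of alternative isoenzymes were formed for 5 pairs in all: the transporters Slc2a1 and Slc2a4, the hexokinases, Pfkm and Pfkl, the phosphoglycerate mutases and the lactate dehydrogenases. Of 15 exact two-sided permutation tests, whose smallest possible p is 0.1, none passed after adjustment (lowest adjusted p = 0.9). Only the mutases had groups that did not overlap. The log2 ratio of Pgam1, the brain type, to Pgam2, the muscle type, was -2.58 ± 0.22 for IGF1R, -2.56 ± 0.11 for IGF1R-caPI3K and -3.23 ± 0.60 for IGF1R-dnPI3K mice (SD, n = 3 each). IGF1R-caPI3K exceeded IGF1R-dnPI3K mice by 0.67 (exact permutation p = 0.1). Pgam1 had 1121, 1082 and 755 in IGF1R-dnPI3K mice, with the lowest on replicate 3, against 1092 to 1497 on the other arrays.

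Of 17 tested cycle members 4 were called higher (Pdha1, Pdhb, Idh2 and Idh3a) and 1 lower (Dld) in IGF1R-dnPI3K than in IGF1R mice. All tested probe sets were called higher in 5.7% and lower in 7.8% of cases, and the brightest 10% in 23.8% and 7.09%, so the cycle's share lies near that of bright probe sets. The pyruvate dehydrogenase complex, which brings pyruvate into the cycle, was read by Pdha1, Pdhb, Dlat and Dld. The cycle count was 0 without IGF1R replicate 3, 1 without IGF1R replicate 1, 2 without IGF1R replicate 2 or any single IGF1R-caPI3K array, 3 without IGF1R-dnPI3K replicate 2 or 3 and 8 without IGF1R-dnPI3K replicate 1. Pdha1 encodes the alpha subunit of the complex's first enzyme, the site at which kinases switch the complex off. It had 9232, 8090 and 8875 in IGF1R mice, 9631, 11023 and 12965 in IGF1R-caPI3K mice and 12018, 13632 and 19479 in IGF1R-dnPI3K mice. All IGF1R values lay below all others, and the 2 PI3K groups overlapped. This is the split of the CreX ratio as well, whose part was not tested. The rise from IGF1R to IGF1R-dnPI3K was 0.76 ± 0.17 (SE, limma adjusted p = 0.0219). Quantile-normalized, it was 0.40 ± 0.12, just outside the threshold (limma adjusted p = 0.0541). On the deposited scale the call was lost without any single IGF1R array (adjusted p = 0.056 to 0.071, limma).

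Pdhb, the beta subunit of the same enzyme, had 6384, 7314 and 6952 in IGF1R mice, 7339, 7386 and 7980 in IGF1R-caPI3K mice and 8255, 8605 and 9015 in IGF1R-dnPI3K mice. The groups stood in that order without overlap, though the gap between the first and second was small. IGF1R arrays were set apart in the CreX ratio too, whose part was not tested. The rise from IGF1R to IGF1R-dnPI3K was 0.33 ± 0.09 (SE, limma adjusted p = 0.0451). It shrank to 0.06 ± 0.08 with quantile normalization (adjusted p = 0.664, limma). Without any 1 array other than IGF1R-dnPI3K replicate 1 the call was lost (adjusted p = 0.0583 to 0.141, limma). Dlat, the acetyltransferase core of the complex, differed by -0.13 ± 0.11 and did not pass. Its second probe set differed by -0.08 ± 0.21, and between IGF1R-caPI3K and IGF1R mice by 0.00 ± 0.21 where the brightest gave -0.11 ± 0.11.

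Dld encodes dihydrolipoamide dehydrogenase, the third enzyme of the pyruvate dehydrogenase complex, which also serves the 2-oxoglutarate dehydrogenase complex. It went against the other called cycle members. Its signals were 5888, 5886 and 5991 in IGF1R mice, 3813, 4047 and 4187 in IGF1R-caPI3K mice and 4424, 4726 and 3048 in IGF1R-dnPI3K mice. The IGF1R values were nearly equal and lay above all others, and the 2 PI3K groups overlapped. The CreX control ratio split the arrays in the same way, and its part in this result was not tested. The difference of IGF1R-dnPI3K from IGF1R mice was -0.57 ± 0.15 (SE, limma adjusted p = 0.0331), and with quantile normalization -0.72 ± 0.16 (adjusted p = 0.0191). With all arrays set to a common median it was -0.40 and did not pass (limma adjusted p = 0.0805).

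Dld differed by nearly the same amount between IGF1R-caPI3K and IGF1R mice, at -0.56 ± 0.15, which did not pass on either scale (limma adjusted p = 0.103 and, quantile-normalized, 0.0681). It passed there in 5 of 24 alternatives (adjusted p from 0.00238 to 0.295), among them the fit of only those 2 groups (0.00632) and the fit without IGF1R-dnPI3K replicate 3 (0.00535). The 2 comparisons share the IGF1R arrays. IGF1R-caPI3K minus IGF1R-dnPI3K came to 0.01 ± 0.15. The call in IGF1R-dnPI3K mice was made in 12 of 24 alternatives, and it was lost without any single IGF1R array (adjusted p = 0.0832 to 0.102, limma) or any single IGF1R-caPI3K array (0.0512 to 0.0546).

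Idh2 encodes the mitochondrial NADP-dependent isocitrate dehydrogenase, which makes the NADPH used by mitochondrial peroxide defence. On the deposited scale it had the largest difference of the members called on their brightest probe sets; after quantile normalization that of Dld was larger in size. The signals were 10078, 8827 and 8481 in IGF1R mice, 9249, 10407 and 10463 in IGF1R-caPI3K mice and 14016, 16244 and 21912 in IGF1R-dnPI3K mice. All 3 IGF1R-dnPI3K values lay above the other 6, which overlapped, and the highest came from replicate 3. The group means were 9128 ± 840, 10040 ± 685 and 17391 ± 4071 (SD, n = 3 each).

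The rise of Idh2 from IGF1R to IGF1R-dnPI3K was 0.91 ± 0.15 log2 units (SE, limma adjusted p = 0.0112). On quantile-normalized signals it was 0.58 ± 0.09 (limma adjusted p = 0.00603), and without IGF1R-dnPI3K replicate 3 it was 0.73 (adjusted p = 0.00736). The call was made in 22 of 24 alternatives, with differences from 0.54 to 1.08 and adjusted p from 0.00217 to 0.251. It was lost without IGF1R replicate 3 (adjusted p = 0.0564) and with the series of the mouse numbers as a block (0.73, adjusted p = 0.251).

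Between IGF1R-caPI3K and IGF1R-dnPI3K mice Idh2 was the only member called. This was 1 of 17 cycle and 0 of 16 glycolysis members, where 0.734% of all tested probe sets were called higher and 0.506% lower in IGF1R-caPI3K mice. The difference was -0.77 ± 0.15 (SE, limma adjusted p = 0.0378). After quantile normalization it was -0.60 ± 0.09 (adjusted p = 0.0115), beside 0.836% of probe sets called higher and 0.709% lower. It passed in 11 of 24 alternatives, with adjusted p from 0.00615 to 0.589. Of the 9 arrays left out singly, it was called without IGF1R-dnPI3K replicate 1 or 3 (adjusted p = 0.00615 and 0.0339, limma) and not called without any of the other 7 (0.0637 to 0.147). At an unadjusted p under 0.05 limma gave 2 of 16 glycolysis and 4 of 17 cycle members, beside 15.4% of all tested probe sets.

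The sequence before the RefSeq start site is shown for the member called on both scales in each direction, and for the pair of pyruvate dehydrogenase subunits that rose together on the deposited scale. Each is 250 bases of GRCm38.p6, 5' to 3' on the gene's strand, and capitals mark matches on either strand to ACGTG (the core bound by hypoxia-inducible factor), CACGTG (the E-box, which contains ACGTG), TCAAGGTCA (the site of oestrogen-related receptors) or GGGCGG (a GC box). All 4 genes lie on the minus strand. The windows are Idh2 at chr7:80115351-80115600, Dld at chr12:31351472-31351721, Pdha1 at chrX:160138431-160138680 and Pdhb at chr14:8172993-8173242.
Idh2: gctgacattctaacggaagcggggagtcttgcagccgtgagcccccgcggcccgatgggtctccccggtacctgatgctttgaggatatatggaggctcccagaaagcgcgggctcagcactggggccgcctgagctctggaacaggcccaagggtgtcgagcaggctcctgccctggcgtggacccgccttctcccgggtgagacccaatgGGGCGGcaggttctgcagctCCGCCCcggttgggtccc
Dld: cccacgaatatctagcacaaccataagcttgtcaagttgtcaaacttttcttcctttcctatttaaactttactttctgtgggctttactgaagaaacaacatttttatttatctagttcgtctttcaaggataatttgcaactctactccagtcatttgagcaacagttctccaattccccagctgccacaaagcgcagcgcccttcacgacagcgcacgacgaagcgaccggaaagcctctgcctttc
Pdha1: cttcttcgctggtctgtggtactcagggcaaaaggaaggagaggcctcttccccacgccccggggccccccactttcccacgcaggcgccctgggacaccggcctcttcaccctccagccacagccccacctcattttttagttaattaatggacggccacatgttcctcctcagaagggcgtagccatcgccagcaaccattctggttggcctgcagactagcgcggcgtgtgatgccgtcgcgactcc
Pdhb: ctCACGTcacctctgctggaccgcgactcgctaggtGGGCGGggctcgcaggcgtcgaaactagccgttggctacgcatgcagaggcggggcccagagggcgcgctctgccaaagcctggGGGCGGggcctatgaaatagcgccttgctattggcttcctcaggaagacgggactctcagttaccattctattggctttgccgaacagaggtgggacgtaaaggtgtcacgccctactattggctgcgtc
The Idh2 window held GC boxes at 38 and, on the opposite strand, 18 bases before the start. That of Pdhb held GC boxes at 214 and 130 bases and ACGTG on the opposite strand at 248 bases before the start. The windows of Dld and Pdha1 held none of the 4 motifs.

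Over windows of 250 bases before to 50 after the start, a promoter sequence was found for 37 of the 39 members, all but Slc2a4 and Idh3a. ACGTG occurred in 11 of 19 glycolysis members (57.9%), among them Aldoa, Gapdh, Pgk1 and Ldha, and in 5 of 18 cycle members (27.8%), against 21.8% of all genes with a promoter. CACGTG occurred in 15.8%, 11.1% and 8.09%, and GGGCGG in 68.4%, 61.1% and 38.2%, in the same order. TCAAGGTCA occurred in 0 of 19 and 0 of 18 members and in 0.466% of all genes. These are counts of letters and show no binding.

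Of the other genes around the isocitrate step, Cs passed on the quantile-normalized scale alone and Idh3a on the deposited scale alone. Cs, citrate synthase, had 9523, 8926 and 10457 in IGF1R mice, 8171, 8418 and 8887 in IGF1R-caPI3K mice and 9340, 9594 and 9532 in IGF1R-dnPI3K mice. The IGF1R-caPI3K values lay below all others, and those of the other groups overlapped. Cs differed by -0.02 ± 0.09 between IGF1R-dnPI3K and IGF1R mice on the deposited scale and by -0.32 ± 0.09 with quantile normalization (SE, limma adjusted p = 0.0451). That call was made in 1 of 24 alternatives. On the quantile-normalized scale it was lost without IGF1R-dnPI3K replicate 3 (adjusted p = 0.101) and with only the 2 groups in the fit (adjusted p = 0.107, limma), and with a common median the sign turned, to 0.15. After quantile normalization 3 of 17 cycle members passed, Idh2 higher, Dld and Cs lower, and 0 of 16 glycolysis members, where 6.31% of probe sets were called higher and 6.42% lower.

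Idh3a, the catalytic subunit of the NAD-dependent isocitrate dehydrogenase that drives the cycle, had 2414, 2946 and 2405 in IGF1R mice, 3186, 3077 and 2954 in IGF1R-caPI3K mice and 3340, 3348 and 3599 in IGF1R-dnPI3K mice. The 3 groups stood in that order without overlap, though the highest IGF1R value all but met the lowest IGF1R-caPI3K value. The CreX ratio set IGF1R arrays apart too, and its part was not tested. The rise from IGF1R to IGF1R-dnPI3K was 0.41 ± 0.11 (SE, limma adjusted p = 0.0337). With quantile normalization it was 0.33 ± 0.10 and just missed the threshold (adjusted p = 0.0566, limma). The call was kept only without IGF1R replicate 2 or IGF1R-dnPI3K replicate 1 (adjusted p = 0.0447 and 0.0279, limma), and the other 7 arrays left out singly gave 0.0544 to 0.119. Idh3g, a regulatory subunit of that enzyme, had 5335 to 5509 in IGF1R and 6013 to 7327 in IGF1R-dnPI3K mice, a difference of 0.33 ± 0.12 (adjusted p = 0.0904, limma). A second, much dimmer probe set of Idh3g differed by -0.02 ± 0.29 (adjusted p = 0.976). The third subunit gene, Idh3b, lay at 9.7 to 68 and was not tested.

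**Figure D2:**
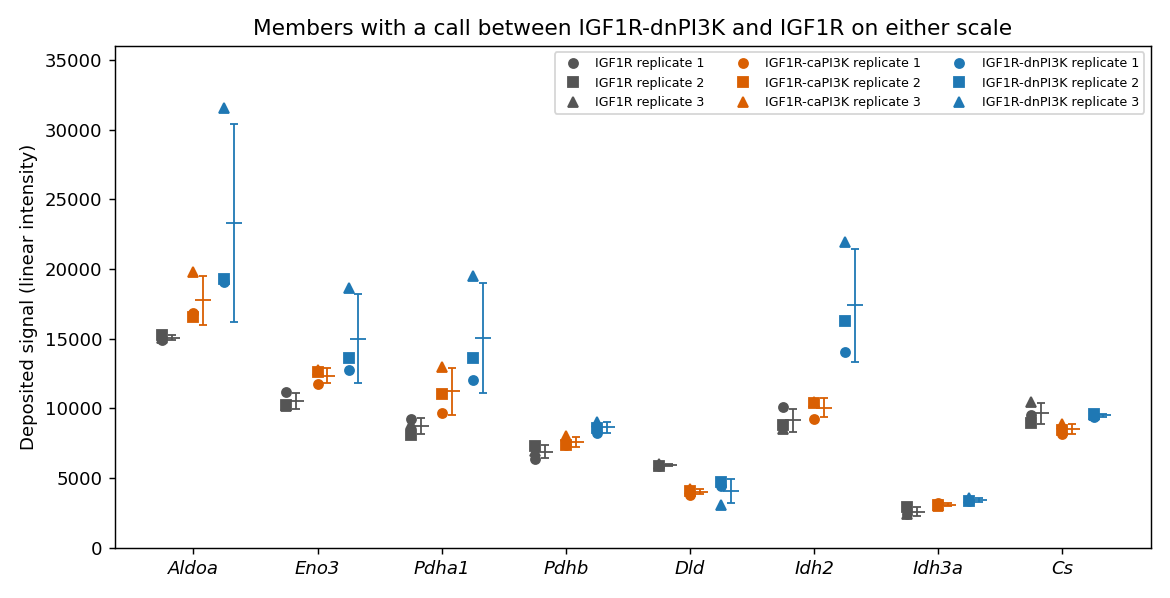
Deposited signal (linear intensity, vertical axis) of the 8 members called between IGF1R-dnPI3K and IGF1R mice on either scale, 1 point per array, with the group mean and SD beside the points. The 3 IGF1R-dnPI3K arrays lie above the other 6 for Idh2 (14016 or more against 10463 or less), Pdhb, Idh3a and Eno3, Dld has its highest values in IGF1R mice, and the triangle of IGF1R-dnPI3K replicate 3 is the highest point for Aldoa, Eno3, Pdha1, Pdhb, Idh2 and Idh3a and the lowest for Dld.

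The later steps of the cycle, from 2-oxoglutarate to oxaloacetate, held no call on the brightest probe sets. Ogdh, the first enzyme of the 2-oxoglutarate dehydrogenase complex, had 9815 to 12001 in IGF1R and 12193 to 18196 in IGF1R-dnPI3K mice. Its difference of 0.40 ± 0.15 did not pass (limma adjusted p = 0.101) and was 0.03 ± 0.10 after quantile normalization. Its partner Dlst differed by 0.26 ± 0.12 and Suclg1, the alpha subunit of succinyl-CoA ligase, by 0.20 ± 0.11. With quantile normalization these differences were 0.11 ± 0.09 and -0.02 ± 0.11. The name of this Dlst probe set marks possible shared targets. Another probe set of Dlst differed by 0.07 ± 0.10, and by -0.01 ± 0.09 after quantile normalization.

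Fh1, fumarate hydratase, had 5332 to 5947 in IGF1R, 5246 to 5516 in IGF1R-caPI3K and 6255 to 8306 in IGF1R-dnPI3K mice. The IGF1R-dnPI3K values lay above all others, yet neither the difference from IGF1R (0.32 ± 0.12, limma adjusted p = 0.0831) nor that of IGF1R-caPI3K from IGF1R-dnPI3K (-0.38 ± 0.12, adjusted p = 0.162) passed. Mdh2, the mitochondrial malate dehydrogenase, differed by 0.12 ± 0.08, and Mdh1, its cytosolic counterpart, by -0.03 ± 0.19, both between IGF1R-dnPI3K and IGF1R mice. Both signs turned with quantile normalization, to -0.15 ± 0.10 and 0.12 ± 0.18. Got2, the mitochondrial aspartate aminotransferase of the malate-aspartate shuttle, had 1380 to 1414 in IGF1R and 1549 to 1742 in IGF1R-dnPI3K mice without passing (0.25 ± 0.11, adjusted p = 0.132). The name of that Got2 probe set marks possible mismatched targets, and another lay at 4.8 to 34.8 and was not tested. Got1, the cytosolic form, lay at 6.4 to 11.1 and was not tested.

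Sucla2, the ATP-forming beta subunit of succinyl-CoA ligase, gave different answers on its 2 probe sets. The brighter had 6960 to 7228 in IGF1R and 7435 to 7814 in IGF1R-dnPI3K mice, a difference of 0.10 ± 0.08 (limma adjusted p = 0.446). The dimmer had 1269, 1499 and 1368 in IGF1R mice, 289, 498 and 552 in IGF1R-caPI3K mice and 556, 466 and 173 in IGF1R-dnPI3K mice. On it both PI3K groups lay below all IGF1R arrays, the split that the CreX ratio shows too, whose part was not tested. The dimmer probe set fell by 1.95 ± 0.38 between IGF1R and IGF1R-dnPI3K mice (SE, limma adjusted p = 0.0162), and with quantile normalization the difference was -1.89 ± 0.36 (adjusted p = 0.0124). Its difference between IGF1R-caPI3K and IGF1R, -1.68 ± 0.38, did not pass (adjusted p = 0.0844). Both probe set names mark possible shared or mismatched targets, so no direction is given for the gene.

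Pcx, pyruvate carboxylase, which refills the cycle with oxaloacetate, was dim on its tested probe set, at 34.5 to 200 over the 9 arrays, and did not pass in any comparison. Its 3' control probe set had 367, 420 and 391 in IGF1R mice, 416, 498 and 409 in IGF1R-caPI3K mice and 524, 579 and 614 in IGF1R-dnPI3K mice. The IGF1R-dnPI3K arrays were the highest 3, with a difference from IGF1R of 0.54 ± 0.13 (SE, limma adjusted p = 0.0286) and 0.67 after quantile normalization (adjusted p = 0.0163). Its 5' control probe set differed by -0.00 ± 0.20 (adjusted p = 0.989). The control probe sets MA and MB of Pcx went the other way, by -0.91 ± 0.53 and -0.48 ± 0.49, and did not pass (limma adjusted p = 0.264 and 0.531). The 3' to 5' signal ratio of Pcx ran from 1.40 to 1.71 in IGF1R, from 1.57 to 1.87 in IGF1R-caPI3K and from 1.79 to 3.25 in IGF1R-dnPI3K samples, and its part in the 3' result was not tested.

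**Figure D3:**
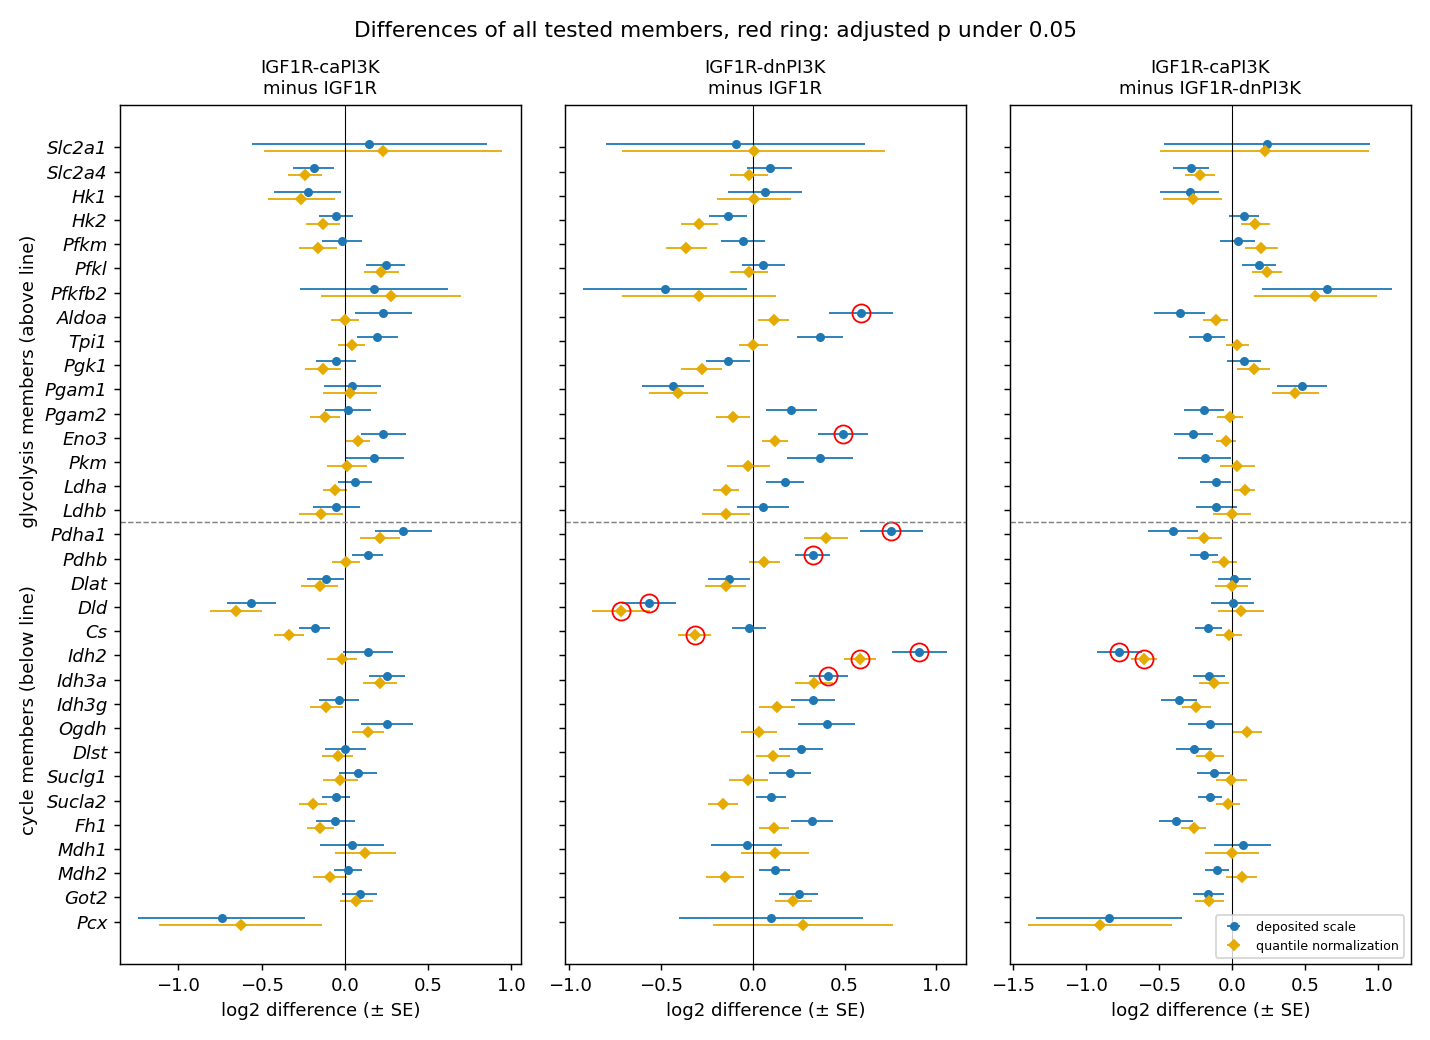
Log2 difference ± SE of the 33 tested members in each comparison, on the deposited scale (blue) and after quantile normalization (yellow), glycolysis above the dashed line and the cycle below it, with red rings for a limma adjusted p under 0.05. The left panel holds 0 rings, the middle one holds 7 on the deposited scale and 3 on the quantile scale, and in the right one Idh2 alone is ringed on both (-0.77 and -0.60).

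Side by side, the median of the cycle set lay above that of glycolysis in IGF1R-dnPI3K mice. The median log2 difference between IGF1R-dnPI3K and IGF1R was 0.25 for the cycle, with 13 of 17 members above 0, and 0.06 for glycolysis, with 10 of 16 above 0. It was -0.09 for all tested probe sets and 0.21 for the brightest 10%, which hold 26 of the 33 tested members. With quantile normalization the medians of cycle and glycolysis were 0.11 and -0.07, beside -0.004 for all probe sets and 0.01 for the brightest 10%. With all arrays set to a common median the cycle lay at 0.42 and glycolysis at 0.23, so the sign for glycolysis turned with the scaling. Between IGF1R-caPI3K and IGF1R-dnPI3K mice the medians were -0.16 for the cycle and -0.11 for glycolysis, beside 0.05 for all probe sets, and after quantile normalization -0.05 and 0.06. These are descriptions of 2 lists and carry no test.

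The gap between the 2 sets can be read within each array, where it does not depend on a constant scale factor. It was taken as the median of the cycle members minus that of the glycolysis members, each gene centred on its mean over the 9 arrays. On the deposited scale it was 0.04, -0.01 and -0.11 for IGF1R, -0.12, -0.01 and -0.10 for IGF1R-caPI3K and 0.07, 0.11 and 0.04 for IGF1R-dnPI3K samples. The lowest IGF1R-dnPI3K array overlapped with the highest IGF1R array. With quantile normalization the IGF1R-dnPI3K arrays lay at 0.07, 0.07 and 0.19 and the other 6 between -0.08 and -0.01, with no overlap.

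**Figure D4:**
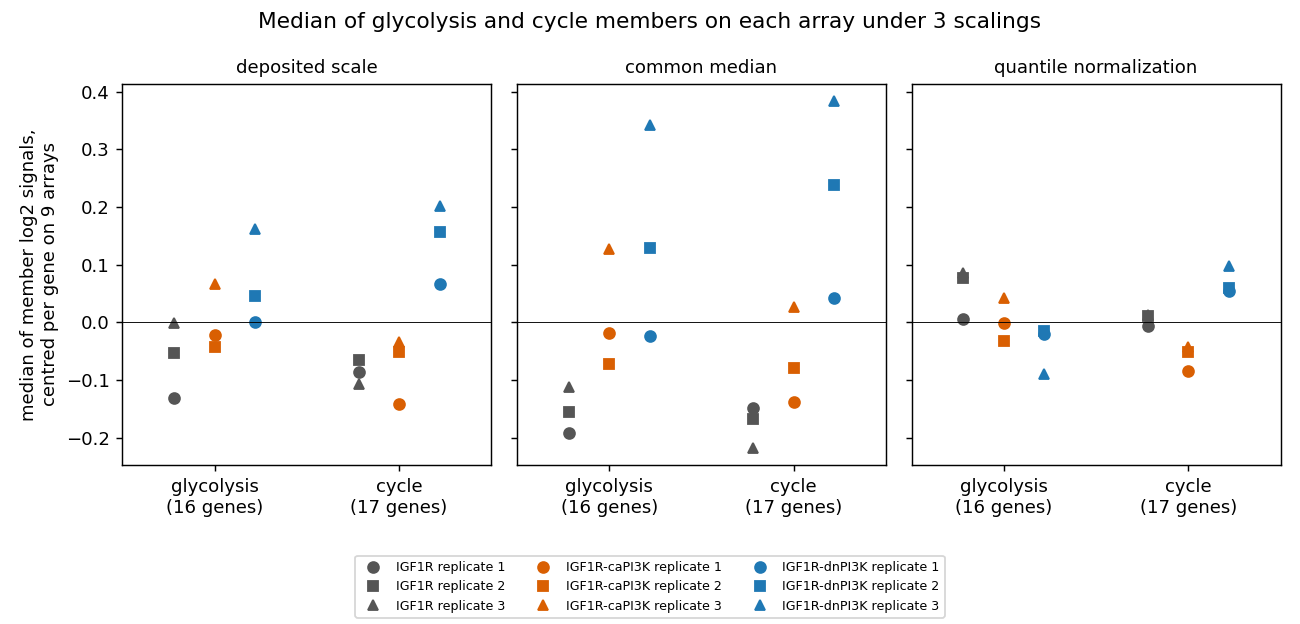
Median over members of the centred log2 signal (vertical axis) on each array, for 16 glycolysis and 17 cycle members, on the deposited scale, with all arrays set to a common median, and after quantile normalization. Cycle medians of the 3 IGF1R-dnPI3K arrays are the highest in each panel (0.05 to 0.10 in the right one), while their glycolysis medians lie at 0.00 to 0.16 on the left and at -0.09 to -0.02 on the right.

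Other genes of these pathways were read from lists that hold none of the members. Of 17 other glycolysis genes tested, 2 were higher and 2 lower in IGF1R-dnPI3K than in IGF1R mice, and with quantile normalization 2 and 1. The background for these lists is 5.7% of all tested probe sets called higher and 7.8% lower on the deposited scale, and 6.31% and 6.42% with quantile normalization. The intracellular hexose transporter Slc2a8 rose by 0.51 ± 0.12 (SE, limma adjusted p = 0.0269). The platelet-type phosphofructokinase Pfkp fell by 0.64 ± 0.15 (adjusted p = 0.024), from 544, 518 and 567 to 413, 308 and 332, and its other probe set differed by -0.68 ± 0.15. Slc16a1, the lactate and pyruvate transporter MCT1, fell by 0.74 ± 0.20 (adjusted p = 0.0396), and it was -0.64 and not called with quantile normalization (0.0539). Gapdhs, the sperm form of Gapdh, rose by 1.04 ± 0.25 on a probe set whose name marks possible shared targets. In IGF1R-caPI3K mice Slc2a8, Slc16a1 and Gapdhs lay on the same side of IGF1R, and did not pass. Slc2a8 had 591 to 709 there against 404 to 454, Slc16a1 350 to 505.5 against 681 to 749, and Gapdhs 209.5 to 270 against 108 to 143. The CreX ratio shows this split too, and its part was not tested. Pfkp overlapped, with 486 to 612 in IGF1R-caPI3K mice. These genes had been picked by their calls in IGF1R-dnPI3K mice against the same IGF1R arrays. Between IGF1R-caPI3K and IGF1R mice 18.4% of all tested probe sets had an unadjusted limma p under 0.05.

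Of 15 other genes of pyruvate and the cycle tested, 2 rose and 0 fell in IGF1R-dnPI3K mice, both subunits of succinate dehydrogenase, where 5.7% of all tested probe sets and 23.8% of the brightest 10% were called higher. Sdhb, the iron-sulphur subunit, rose by 0.45 ± 0.10 (SE, limma adjusted p = 0.0189) and Sdhd, a membrane anchor, by 0.49 ± 0.13 (adjusted p = 0.0336). With quantile normalization they stood at 0.10 and 0.16 and did not pass. Sdha, the flavoprotein subunit, went the other way, at -0.35 ± 0.11 (adjusted p = 0.0521) and, quantile-normalized, -0.41 (adjusted p = 0.0275). It was the only gene of these 5 lists called between IGF1R-caPI3K and IGF1R mice, at -0.50 and on the quantile scale alone (adjusted p = 0.0488, limma). Slc25a1, the mitochondrial citrate carrier, had a difference between IGF1R-dnPI3K and IGF1R mice of -0.14 ± 0.16, while a dimmer probe set gave 0.10 ± 0.17.

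In glycogen metabolism 1 of 10 tested genes was lower and 0 higher in IGF1R-dnPI3K mice. Of all tested probe sets 7.8% were called lower and 5.7% higher in that comparison. Ppp1r3c, which targets a phosphatase to glycogen and promotes its synthesis, had 1031, 1412 and 1151 in IGF1R mice and 715, 549 and 432 in IGF1R-dnPI3K mice, which did not overlap. It fell by 1.10 ± 0.19 (SE, limma adjusted p = 0.0135). With quantile normalization it was -1.04, and Pygb, a glycogen phosphorylase, passed as well at -0.42 (adjusted p = 0.0421). Gyg, glycogenin, which primes glycogen synthesis, was not called on its brightest probe set (-0.20 ± 0.11, adjusted p = 0.249) but was lower on another (-1.11 ± 0.31, adjusted p = 0.0423, limma). In the pentose phosphate pathway 1 of 7 tested genes rose and 0 fell.

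Pgls, the lactonase of the pentose phosphate pathway, had 1032, 888 and 940 in IGF1R mice and 1519, 1480 and 1756 in IGF1R-dnPI3K mice. The groups were well apart, with a difference of 0.73 ± 0.12 (SE, limma adjusted p = 0.00932) that was 0.73 with quantile normalization too. Among 12 tested regulators 2 rose and 0 fell, where 5.7% of all tested probe sets were called higher and 7.8% lower. Esrra, a nuclear receptor that drives mitochondrial genes, rose by 0.51 ± 0.12 (adjusted p = 0.0263, limma). Prkab1, a subunit of the energy sensor AMPK, rose by 0.44 ± 0.13 (adjusted p = 0.0436, limma). A second probe set of Esrra differed by -0.00 ± 0.12. Both calls were kept with quantile normalization. In IGF1R-caPI3K mice Pgls and Esrra also lay above all IGF1R values, and did not pass. Pgls had 1206 to 1392 there, and Esrra 2286 to 2550 against 1626.5 to 1948.5 in IGF1R mice. For Esrra IGF1R-caPI3K minus IGF1R-dnPI3K came to -0.04 ± 0.12. The CreX ratio shows this split too, and its part was not tested. Prkab1 overlapped between IGF1R-caPI3K and IGF1R mice. Pgls, Esrra and Prkab1 had been picked by their calls in IGF1R-dnPI3K mice against the same IGF1R arrays. Of all tested probe sets, 18.4% had an unadjusted limma p under 0.05 between IGF1R-caPI3K and IGF1R mice.

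Cell type markers moved alongside. Between IGF1R-dnPI3K and IGF1R mice 5.7% of all tested probe sets were called higher and 7.8% lower. With quantile normalization these shares were 6.31% and 6.42%. Cardiomyocyte markers summed to 140654 to 151901 in IGF1R, 152965 to 161186 in IGF1R-caPI3K and 166257 to 209472 in IGF1R-dnPI3K mice. Of the 8, 4 were called higher and 1 lower between IGF1R-dnPI3K and IGF1R, and with quantile normalization 0 and 2. Fibroblast markers summed to 29427 to 32118, 31719 to 35447 and 21558 to 25302, with 4 of 7 called lower in IGF1R-dnPI3K than in IGF1R mice on both scales. Macrophage markers summed to 2678 to 2997, 2602 to 2864 and 1338 to 2100, with 3 of 4 tested called lower on both scales. Skeletal muscle markers summed to 30672 to 32880, 39262 to 40672 and 14389 to 22557. These sums were carried mainly by Acta1, Myl1 and Casq1. Tnnt3, Tnni2 and Myh1 lay at 59.3 or less on every array and were not tested. Of 8 skeletal muscle markers tested, Myl1, Casq1 and Acta1 were called lower and Atp2a1 higher between IGF1R-dnPI3K and IGF1R. Red blood cell markers summed to 16932 to 18215, 19053 to 21202 and 20611 to 36516, with 0 of 3 tested called. Endothelial markers summed to 5956 to 7318, 4650 to 5084 and 4855 to 5736, with 1 of 6 called higher and 2 lower between IGF1R-dnPI3K and IGF1R. Such sums are carried by their brightest genes. In whole ventricles a change in the share of a cell type and a change of RNA per cell cannot be told apart, and the part of these markers in the member results was not tested.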

How the data were processed

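Total RNA of 9 ventricle samples was measured on oligonucleotide arrays. The deposited table holds 1 linear intensity per probe set and array, for 12488 probe sets, 66 of them controls. On these deposited values the 2% trimmed mean is 500.3 to 500.4 on every array. The signal algorithm and its version, like the annotation's build, were not given in the sources used here. Groups came from the sample titles, and no label pairs the mice. The limma p-values set a group difference against the spread between these samples within groups. In the main fit that spread is estimated over all 3 groups and moderated across probe sets.

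Gene names were those of the array platform's annotation, with a single symbol for 10833 probe sets, several for 396 and none for 1193. Control probe sets were left out. Intensities under 32.4, the 20th percentile of positive values, were set to it before log2. The 7898 probe sets above their array's 40th percentile on 3 or more arrays were tested. All 9 arrays entered 1 limma fit (version 3.58.1, in R 4.3.3 with statmod 1.5.0) with a variance trend, Benjamini-Hochberg adjusted per comparison at 0.05. Errors on differences are SE and those on signals SD. The model was tested on simulated data.

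A gene was read from its brightest probe set. Values in every array are given for members called on either scale, other members are given by range, other probe sets where their sign or call differs between IGF1R-dnPI3K and IGF1R, and up to 6 called genes of each other list. Further members and lists of cell markers were described after their values were seen. The members and lists were chosen with earlier results of these data known. Promoter sequences are from RefSeq (GRCm38.p6). Alternatives covered the scaling, low values, filters, spread models, weights of arrays, the mouse numbers, the arrays in the fit and the probe sets.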

Additional observations from a re-analysis of the deposited data

How the results depend on the processing

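The members' calls depend on the scale, on the spread model and on which arrays share a fit, and the cause of each change was not tested beyond what the alternative itself removes. Array signals limit what can be said of Slc2a1, Pfkfb2, Idh3b, Got1 and Pcx, which lie near the low end. Of 2343 values of single members under an alternative, 2231 kept their side of the threshold, 94 calls were lost, 17 were gained and 1 turned its sign with a call. Of the 2231, 165 were uncalled both times and had the other sign. That one is Sucla2 between IGF1R-dnPI3K and IGF1R, which was -0.93 (limma adjusted p = 0.0306) as the mean over its probe sets against 0.10 on the brightest. No paired analysis was possible because each mouse number belongs to 1 mouse and replicates were numbered in deposit order; whether the series of these numbers marks a litter or batch is not stated in the labels.

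Quantile normalization gave, in IGF1R-caPI3K minus IGF1R, 77 called probe sets in place of 17 and medians of -0.029 (glycolysis) and -0.041 (cycle). In IGF1R-dnPI3K minus IGF1R it gave 0 glycolysis and 3 cycle calls with medians of -0.066 and 0.11, and in IGF1R-caPI3K minus IGF1R-dnPI3K medians of 0.063 and -0.052. With it and only the 2 groups compared, the called probe sets were 643, 309 and 34 in these 3 comparisons, the cycle calls in the first 2 were 2 and 1, the glycolysis calls in the second 0, and the medians those just given. With it and IGF1R-dnPI3K replicate 3 left out, chosen after seeing the data, they were 525, 491 and 64, with 2 cycle calls in each of the first 2 and 0 glycolysis calls. Medians were then -0.029 and -0.041, -0.12 and 0.066, and 0.063 for glycolysis in the last. Without normalization but with only the 2 groups compared, 699, 132 and 13 probe sets were called, with 1, 1 and 0 cycle calls and 0 glycolysis calls in the second.

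A common median gave 3 called probe sets in the first comparison with medians of 0.16 and 0.12. In the second comparison it kept the calls of Aldoa, Eno3, Pdha1, Pdhb, Idh2 and Idh3a, added Tpi1 and lost Dld. Medians there were 0.23 and 0.42, and in the third comparison it gave 0 cycle calls and a cycle median of -0.23. A floor at the 40th percentile gave 67 called probe sets in the first and 1 glycolysis call in the second, and a filter at the 60th percentile 59 in the first. Without a filter 0, 387 and 36 were called, with 0 glycolysis and 1 cycle call in the second and 0 cycle calls in the third. Without a variance trend 7, 657 and 45 were called, with 0 glycolysis and 2 cycle calls in the second and 0 cycle calls in the third. Array weights gave 777 in the first, with 1 cycle call, and 348 in the third.

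In the fit blocked by mouse number series 1, 5 and 8 probe sets were called, with 0 glycolysis calls, 0 cycle calls and a cycle median of 0.19 in the second and 0 cycle calls in the third. Without probe sets whose names mark shared targets, 3 were called in the first, 1 glycolysis member in the second, and the glycolysis median of the third was -0.033. As means over all probe sets of a gene, 1 was called in the first and 56 in the third, with 1 glycolysis call and medians of -0.048 and 0.17 in the second, and a glycolysis median of 0.040 and 0 cycle calls in the third.

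Leaving out 1 array at a time gave 0 to 549, 77 to 1856 and 10 to 537 called probe sets in the 3 comparisons. Glycolysis calls ran from 0 to 0, 0 to 4 and 0 to 0, and cycle calls from 0 to 1, 0 to 8 and 0 to 2. Glycolysis medians ran from -0.040 to 0.079, 0.017 to 0.15 and -0.20 to -0.020, and cycle medians from 0.0043 to 0.045, 0.20 to 0.30 and -0.22 to -0.16.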
